A study of Mus musculus with 48 samples.

Results

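The effect of the PLNR9C genotype on messenger RNA was measured in the left ventricle of mice at 8 weeks of age, a stage that the labels place ahead of dilated cardiomyopathy. The comparison took every library of 2 groups in the 8-week read count table, 3 PLNR9C ventricles and 3 wild type ventricles, all given vehicle, which is 6 of the 48 libraries of the series. Both groups were FVB mice kept under normal growth conditions, and the labels give the same stage name to both. The labels do not say whether the PLNR9C allele is a transgene, which promoter drives it or the sex of the mice. At the same age 3 PLNR9C and 3 wild type ventricles came from mice that received JQ1 at 50 mg/kg, and these entered as a second, separate comparison of the genotypes. Pooled cardiomyocytes and pooled cardiac non-myocytes of wild type vehicle FVB mice at 16 weeks, 3 libraries each, gave the level of a gene in either kind of cell.

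Phospholamban, the product of Pln, is a small membrane protein of the sarcoplasmic reticulum that restrains SERCA2a, the calcium pump that refills the store between beats. Phosphorylation by protein kinase A lifts that restraint when the heart is driven by adrenergic signals, and the PLNR9C mutation is known from human families and mice as a cause of dilated cardiomyopathy with an onset after a phase of normal pump function. The adult ventricle draws most of its energy from fatty acids burned in mitochondria. A ventricle under load is known to switch on natriuretic peptide genes, to lay down matrix and to lose part of its oxidative gene programme.

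The 12 libraries at 8 weeks held 16984138 to 27086694 reads in genes each. Levels are given as counts per 1000000 reads (CPM) with library sizes scaled by the trimmed mean of M-values. Each log2 fold change is PLNR9C over wild type with its standard error, for 3 libraries against 3. A gene is said to have risen or fallen when its Benjamini-Hochberg adjusted p in edgeR's quasi-likelihood test, over 15501 genes, was under 0.05. The labels describe the libraries of a group as individual biological replicates. Pln itself (chr10:53337686-53345999, plus strand, GRCm38) had 3384, 3342 and 3608 CPM in PLNR9C ventricles, against 4512, 4151 and 4155 CPM in wild type ventricles. The groups did not overlap, and Pln fell by 0.31 ± 0.06 on the log2 scale (adjusted p = 0.0023). Reads summed per gene cannot tell a mutant transcript from a normal one, so this value does not check the genotype labels.

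In the PLNR9C ventricle 1219 of 15501 genes rose, which is 7.86%, and 1007 fell, which is 6.5%, together 14.4%. At least 2-fold changes were 379 among the rises, 2.45% of the genes tested, and 21 among the falls, 0.135%. The median rise was 0.66 on the log2 scale, with the middle 50% of risen genes between 0.40 and 1.20, and the median fall was -0.32, with the middle 50% between -0.42 and -0.26. The risen genes had a median level of 14.6 CPM in the higher group, close to the 15.1 CPM of all genes tested, and the fallen genes one of 81.8 CPM. Reads in the risen genes made up 5.85% to 6.87% of each PLNR9C library and 3.93% to 4.28% of each wild type library. Those in the fallen genes made up 33.3% to 35.2% of PLNR9C libraries and 39.4% to 40.4% of wild type libraries. Leaving out wild type replicate 1 reduced the count to 731 rises and 536 falls, and leaving out PLNR9C replicate 2 reduced it to 775 and 612.

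**Figure D1:**
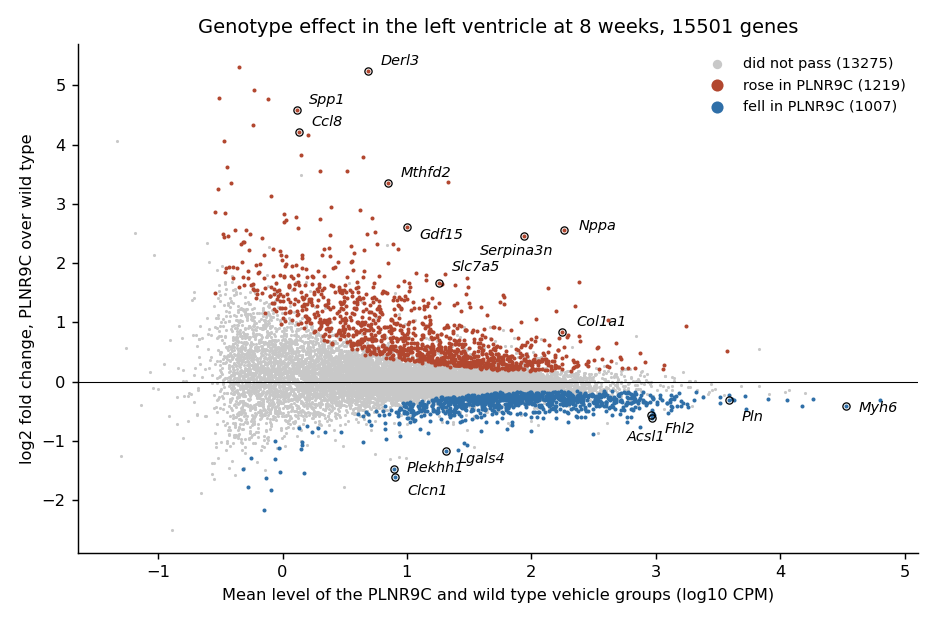
Log2 fold change of PLNR9C over wild type (vertical axis) against the mean level of both vehicle groups in CPM on a log10 scale (horizontal axis), 1 point per gene tested. Red points mark the 1219 genes that rose and blue points the 1007 that fell; the rises reach further from 0 than the falls.

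The 2 directions differed in the cells that hold the genes. Of 1213 risen genes that were also tested in the cell fractions, 901 (74.3%) were higher in wild type non-myocytes than in wild type cardiomyocytes, and 151 (12.4%) were higher in cardiomyocytes. Of 1002 fallen genes 923 (92.1%) were higher in cardiomyocytes and 51 (5.09%) in non-myocytes. Over all 15115 genes tested in both, 39% were higher in cardiomyocytes and 40.8% in non-myocytes. The cardiomyocyte marker list (Myh6, Myl2, Tnni3 and 6 others) summed to 46500 to 52400 CPM in PLNR9C libraries and 60800 to 63500 CPM in wild type libraries, and 5 of its 9 members fell (3 without wild type replicate 1), at a median of -0.23. The macrophage list summed to 615 to 681 CPM in PLNR9C libraries and 243 to 302 CPM in wild type libraries, and 14 of 18 rose. In whole ventricle, fewer cells of a type and less RNA per cell cannot be told apart. Their part in each result below was not tested.

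**Figure D2:**
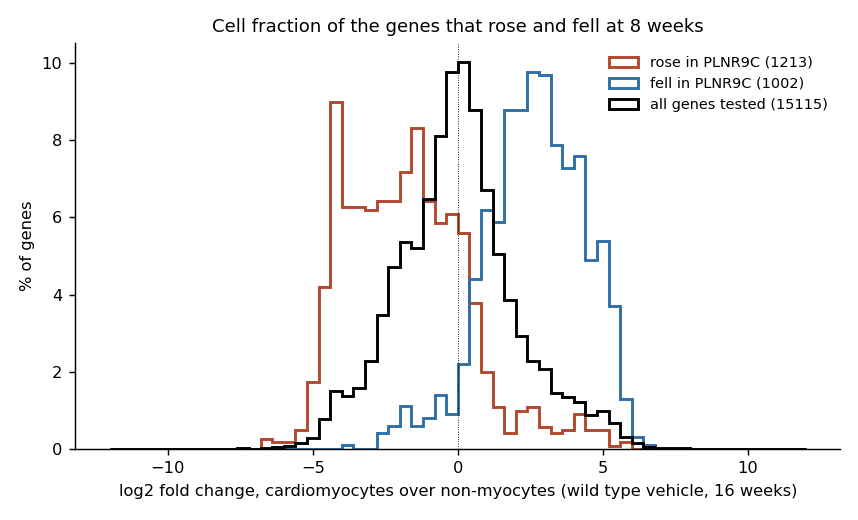
Distribution of the log2 fold change of wild type vehicle cardiomyocytes over non-myocytes at 16 weeks (horizontal axis) for genes that rose in the PLNR9C ventricle at 8 weeks (red), genes that fell (blue) and all genes tested (black), as % of each set. Most risen genes lie left of 0, towards non-myocytes, and most fallen genes lie right of it, towards cardiomyocytes.

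**Figure D3:**
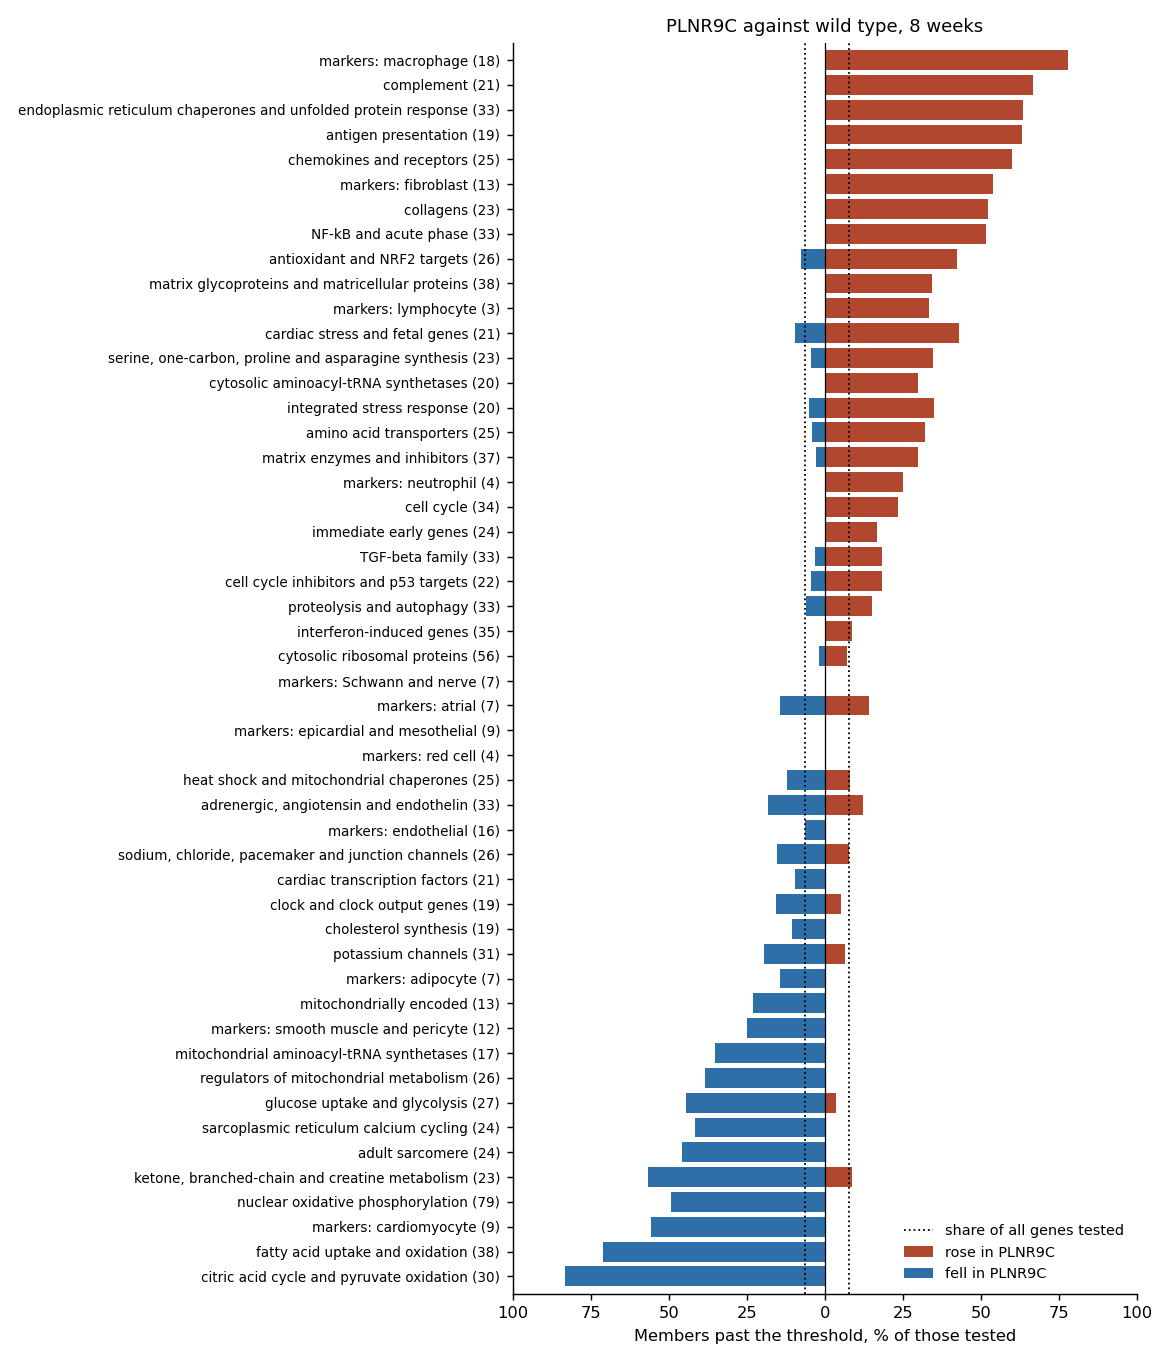
Share of each gene list that rose (red, to the right) and fell (blue, to the left) in the PLNR9C ventricle, as % of the members tested, whose number stands in brackets. Dotted lines mark the share of all genes tested, 7.86% higher and 6.5% lower; lists of fewer than 3 tested members and the sex-linked list are left out. Macrophage markers stand at the top with 14 of 18 risen, and the citric acid cycle list at the bottom with 25 of 30 fallen.

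Among genes that averaged 10 CPM or more where they were higher and whose libraries did not overlap, the 12 largest rises were Serpina3h, Mthfd2, Gdf15, Nppa, Serpina3n, Sdf2l1, Mt2, Aldh1a2, Cx3cr1, Hmox1, Ctss and Mpeg1. Serpina3h, a serine protease inhibitor, had 43.4, 45.9 and 28.1 CPM in PLNR9C ventricles, against 2.47, 5.04 and 3.63 CPM in wild type ventricles (log2 fold change 3.37 ± 0.29, adjusted p = 7.7e-05). Its close copy Serpina3n had 127, 196 and 120 CPM in PLNR9C, against 17.8, 35.9 and 25.9 CPM in wild type (2.46 ± 0.34, adjusted p = 0.0019). Reads of the 2 Serpina3 genes may be shared between copies, so the split between them is uncertain. Nppa, the atrial natriuretic peptide, had 246, 453 and 235 CPM in PLNR9C ventricles, against 42.3, 56.5 and 59.2 CPM in wild type ventricles (2.56 ± 0.42, adjusted p = 0.0047). PLNR9C replicate 2 held the highest value of Nppa, yet all 3 PLNR9C libraries lay above all 3 wild type ones. Gdf15, a cytokine that stressed cells secrete, had 20.5, 17.3 and 14.0 CPM in PLNR9C, against 1.76, 3.11 and 3.48 CPM in wild type (2.61 ± 0.24, adjusted p = 8.1e-06). Aldh1a2, Cx3cr1 and Hmox1 lost the call without any of several single libraries, with adjusted p values of up to 0.0656, 0.0832 and 0.0778. For Aldh1a2 these were PLNR9C replicate 2, wild type replicate 1 and wild type replicate 3. For Cx3cr1 they were PLNR9C replicates 1 and 2 and every wild type library, and for Hmox1 PLNR9C replicate 2 and every wild type library. Mt2, a metal-binding metallothionein, rose by 2.23 ± 0.32 (adjusted p = 0.0013).

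By p-value rather than size, the rises were led by Slc7a5, Creld2, Cd44, Mthfd2, Sirpa, C1qc, Mvp and Itgb2. Cd44, the hyaluronan receptor, had 25.6, 36.0 and 25.7 CPM in PLNR9C ventricles, against 8.22, 9.20 and 10.3 CPM in wild type ventricles (1.65 ± 0.13, adjusted p = 5.3e-07). Itgb2, the integrin chain shared by leukocytes, rose by 1.39 ± 0.13 (adjusted p = 1.7e-06), and Sirpa, a receptor that binds CD47, rose by 0.88 ± 0.08 (adjusted p = 8.3e-07). Mvp, the major vault protein, had 125, 129 and 116 CPM in PLNR9C, against 70.7, 73.9 and 78.9 CPM in wild type (0.73 ± 0.07, adjusted p = 1.4e-06). Its difference was under 2-fold, and the groups stood far apart relative to their spread.

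Falls of that size were rare, and among the 12 largest under the same limits were Clcn1, Plekhh1, Lgals4, Kcnv2, Gpr22, Dcaf12l1, Mylk4, Pfkfb1, P2ry1, Efnb3 and Scn4a. Kcnv2, Mylk4 and Pfkfb1 lost the call without any of several single libraries, with adjusted p values of up to 0.133, 0.0969 and 0.15. Gpr22 lost it without PLNR9C replicate 2 (adjusted p = 0.0557). Lgals4, a galectin, had 10.8, 13.7 and 13.9 CPM in PLNR9C ventricles, against 27.4, 25.9 and 32.9 CPM in wild type ventricles (-1.17 ± 0.13, adjusted p = 2.1e-05). Plekhh1 had 4.19, 4.26 and 3.87 CPM in PLNR9C, against 15.4, 6.97 and 12.4 CPM in wild type (-1.48 ± 0.25, adjusted p = 0.0012). The wild type libraries of Plekhh1 were spread over a wide range, with replicate 2 the lowest of them. Efnb3, an ephrin ligand, fell by 0.83 ± 0.10 (adjusted p = 4.9e-05), P2ry1, a purinergic receptor, by 0.83 ± 0.11 (adjusted p = 0.00018) and Dcaf12l1 by 0.92 ± 0.18 (adjusted p = 0.0024). By p-value the falls were led by metabolic genes and by Fhl2, with Hsdl2, a peroxisomal dehydrogenase-like protein, at 143, 140 and 170 CPM in PLNR9C ventricles, against 252, 236 and 238 CPM in wild type ventricles (-0.68 ± 0.07, adjusted p = 6.4e-06). Cpeb3, an RNA-binding regulator of translation, fell by 0.60 ± 0.07 (adjusted p = 2.3e-05).

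**Figure D4:**
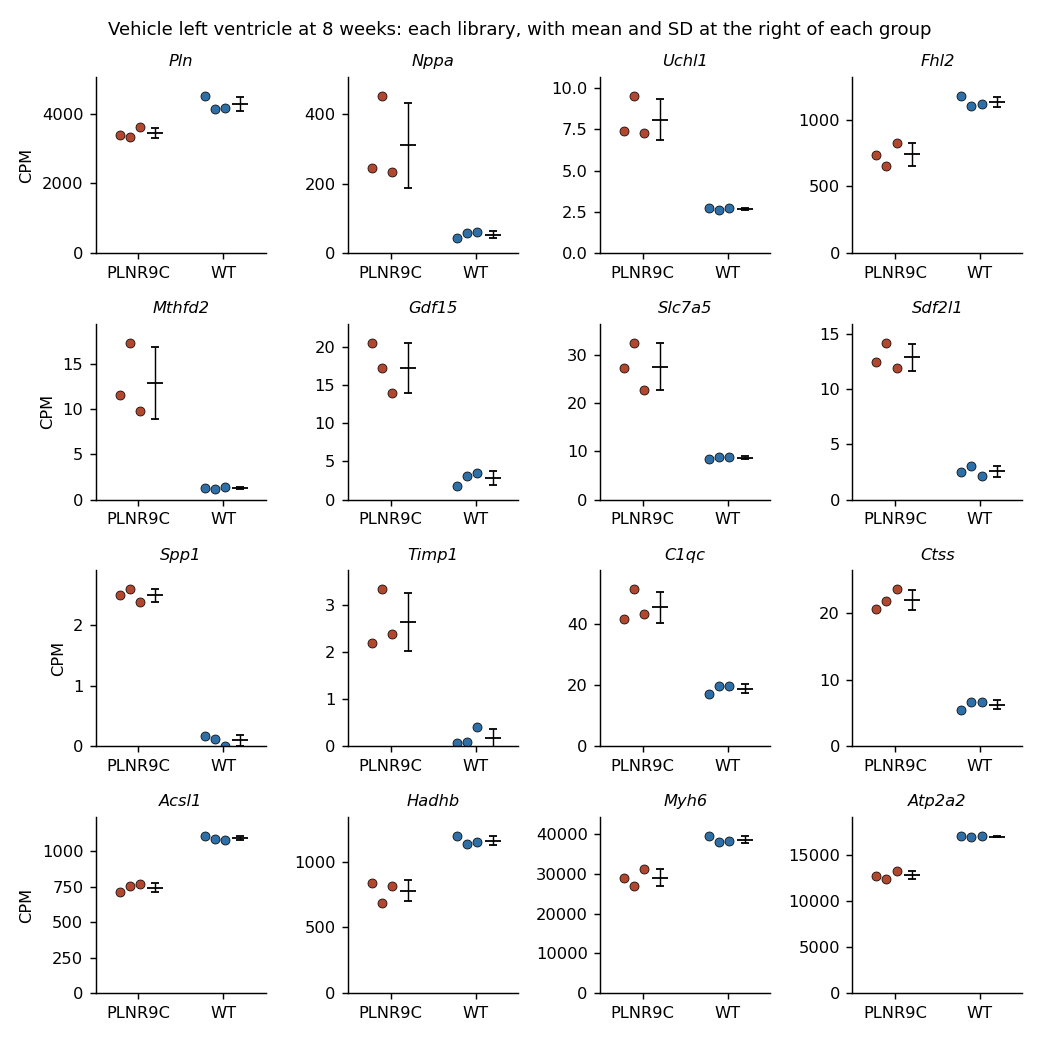
CPM of 16 genes in each of the 3 PLNR9C libraries (red, left) and the 3 wild type libraries (blue, right), all vehicle at 8 weeks, with the mean and SD of each group as a black bar at its right. Every panel starts at 0; in all 16 genes the PLNR9C libraries lie wholly above or wholly below the wild type libraries, as do those of 32.5% of all genes tested.

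The count of each list below stands beside 7.86% of all genes tested that rose and 6.5% that fell. Genes that mark cardiomyocyte stress rose in part. Of 21 tested, 9 rose and 2 fell, at a median of 0.61 against 0.01 over all genes, and the 9 became 4 without wild type replicate 1 and 5 without PLNR9C replicate 2 or wild type replicate 3. Beside Nppa, Uchl1, a deubiquitinase, had 7.42, 9.53 and 7.30 CPM in PLNR9C ventricles, against 2.70, 2.60 and 2.74 CPM in wild type ventricles (1.59 ± 0.17, adjusted p = 6.2e-06). Rcan1, an inhibitor of calcineurin whose gene calcineurin signalling itself switches on, had 168, 153 and 119 CPM in PLNR9C, against 65.6, 72.0 and 74.5 CPM in wild type (1.05 ± 0.11, adjusted p = 2.5e-05). Xirp2, an actin-binding protein of the intercalated disc, rose by 0.48 ± 0.10 (adjusted p = 0.0062), and Ankrd1, a stretch-responsive ankyrin repeat protein, by 0.95 ± 0.22 (adjusted p = 0.021). Myh7, the slow myosin heavy chain of the fetal ventricle, had 4387, 5368 and 3582 CPM in PLNR9C, against 3261, 2930 and 3079 CPM in wild type (0.52 ± 0.15, adjusted p = 0.044). That call was lost without PLNR9C replicate 1, PLNR9C replicate 2 or any wild type library, with an adjusted p of up to 0.145. It was also lost with no filter on low counts and with the replicate number as a block. Fhl2, a LIM protein that docks metabolic enzymes to titin, went the other way, with 736, 656 and 827 CPM in PLNR9C ventricles, against 1178, 1103 and 1118 CPM in wild type ventricles (-0.62 ± 0.07, adjusted p = 1.9e-05). Neither Nppb, the ventricular natriuretic peptide (0.87 ± 0.25, adjusted p = 0.0504), nor Acta1, the skeletal actin of the fetal heart (0.77 ± 0.54, adjusted p = 0.43), passed. For Nppb all 3 PLNR9C libraries, 61.3 to 92.2 CPM, lay above the wild type ones, 35.6 to 46.0 CPM. Nppb passed in 7 of 15 alternative fits and Acta1 in 0 of 15.

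Of 24 sarcomere genes 11 fell and none rose, at a median of -0.19, and 7 fell without wild type replicate 1. Myh6, the adult myosin heavy chain, had 29080, 26880 and 31230 CPM in PLNR9C ventricles, against 39580, 38000 and 38420 CPM in wild type ventricles (-0.41 ± 0.08, adjusted p = 0.0013). The light chains Myl2 (-0.41 ± 0.08, adjusted p = 0.0015) and Myl3 (-0.42 ± 0.09, adjusted p = 0.0026) fell alongside it, as did Tmod1, which caps thin filaments (-0.31 ± 0.06, adjusted p = 0.00076), and Ldb3 of the Z disc (-0.34 ± 0.06, adjusted p = 0.00096). Tcap, which ties titin to the Z disc, had 544, 486 and 645 CPM in PLNR9C, against 1141, 926 and 772 CPM in wild type (-0.76 ± 0.14, adjusted p = 0.0054). The wild type libraries of Tcap were more scattered than those of the myosin genes, and none overlapped a PLNR9C library. Ttn, the giant spring titin, did not pass (-0.08 ± 0.07, adjusted p = 0.55).

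Partners of phospholamban were among the fallen genes. In the list of sarcoplasmic reticulum calcium cycling 10 of 24 fell and none rose, at a median of -0.16, and 5 fell when PLNR9C replicate 1, PLNR9C replicate 2, wild type replicate 1 or wild type replicate 2 was left out. Atp2a2, which encodes the SERCA2a pump, had 12700, 12360 and 13240 CPM in PLNR9C ventricles, against 17030, 16900 and 17050 CPM in wild type ventricles (-0.41 ± 0.06, adjusted p = 0.00014). Casq2, the calcium-binding protein of the store, fell by 0.34 ± 0.08 (adjusted p = 0.0065). Hrc, another calcium-binding protein of the store, fell by 0.32 ± 0.07 (adjusted p = 0.0061), and Jph2, which holds the store membrane against the T-tubule, fell by 0.37 ± 0.08 (adjusted p = 0.0046). The release channel gene Ryr2 (-0.20 ± 0.08, adjusted p = 0.077) and the exchanger gene Slc8a1 (-0.14 ± 0.08, adjusted p = 0.28) did not pass. Pln and Atp2a2 thus differed in the same direction and by similar steps, and the difference between the 2 was not tested.

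Of 31 potassium channel genes 6 fell and 2 rose, the rises near the 7.86% of all genes tested. The 2 were 1 without PLNR9C replicate 2, PLNR9C replicate 3 or wild type replicate 1. Kcnk3, which encodes the leak channel TASK-1, fell by 0.45 ± 0.08 (adjusted p = 0.0006), Kcnj11, the pore of the ATP-sensitive channel, by 0.36 ± 0.07 (adjusted p = 0.0015), and its regulatory subunit Abcc9 by 0.31 ± 0.07 (adjusted p = 0.0047). Kcnj3, a pore subunit of the acetylcholine-gated channel, fell by 0.52 ± 0.11 (adjusted p = 0.0025). Of 26 sodium, chloride, pacemaker and junction genes 4 fell and 2 rose, the rises near the 7.86% of all genes tested. The 4 were 1 without PLNR9C replicate 2, PLNR9C replicate 3 or wild type replicate 1, and 2 without PLNR9C replicate 1 or wild type replicate 3. Scn4a, the sodium channel of skeletal muscle, had 45.4, 47.2 and 45.9 CPM in PLNR9C, against 85.2, 75.8 and 79.4 CPM in wild type (-0.79 ± 0.12, adjusted p = 0.00049). Clcn1, the chloride channel of skeletal muscle, had 2.50, 4.81 and 4.48 CPM in PLNR9C, against 17.5, 5.50 and 13.03 CPM in wild type (-1.61 ± 0.40, adjusted p = 0.025). That call was lost when any of 5 libraries was left out, with an adjusted p of up to 0.0808 without PLNR9C replicate 1.

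Of 33 adrenergic, angiotensin and endothelin genes 4 rose and 6 fell, beside 7.86% and 6.5% of all genes tested. Grk5, a kinase that turns off adrenergic receptors, had 30.6, 32.2 and 28.1 CPM in PLNR9C ventricles, against 13.8, 18.6 and 17.7 CPM in wild type ventricles (0.85 ± 0.10, adjusted p = 1.6e-05). The arrestins, which bind receptors so marked, rose as well, Arrb2 by 0.94 ± 0.11 (adjusted p = 2.6e-05) and Arrb1 by 0.46 ± 0.08 (adjusted p = 0.00094). Ace, the angiotensin-converting enzyme, rose by 0.35 ± 0.08 (adjusted p = 0.0055), whereas Agtr1a, the receptor of angiotensin II, had 18.03, 19.9 and 22.1 CPM in PLNR9C, against 30.4, 25.4 and 28.2 CPM in wild type (-0.49 ± 0.10, adjusted p = 0.0031). Pde4d, a phosphodiesterase that degrades cyclic AMP, fell by 0.39 ± 0.08 (adjusted p = 0.0033). Adrb1, the main adrenergic receptor of the ventricle, did not pass (-0.10 ± 0.15, adjusted p = 0.75). Arrb1, Arrb2 and Ace were higher in wild type non-myocytes than in cardiomyocytes by 2.68, 3.41 and 3.61 on the log2 scale.

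Of 38 genes of fatty acid uptake and oxidation 27 fell and none rose, at a median of -0.45, and 24 to 29 fell with 1 library left out. Hadhb, a subunit of the trifunctional protein that carries out the last steps of beta-oxidation of long chains, had 840, 686 and 815 CPM in PLNR9C ventricles, against 1196, 1132 and 1149 CPM in wild type ventricles (-0.57 ± 0.07, adjusted p = 2.2e-05). Acsl1, which couples fatty acids to coenzyme A, had 710, 754 and 766 CPM in PLNR9C, against 1108, 1090 and 1081 CPM in wild type (-0.56 ± 0.06, adjusted p = 3.6e-06). Both genes were lower in every PLNR9C library than in any wild type library. Fabp3, the fatty acid carrier of heart cytoplasm, fell by 0.59 ± 0.07 (adjusted p = 3.6e-05), Cpt1b, the gate for entry into mitochondria, by 0.44 ± 0.06 (adjusted p = 9.6e-05), and Cd36, the uptake receptor, by 0.29 ± 0.07 (adjusted p = 0.0072). Etfdh, which passes the electrons on to ubiquinone, fell by 0.49 ± 0.05 (adjusted p = 8.6e-06), and Decr1, which handles unsaturated chains, fell by 0.55 ± 0.06 (adjusted p = 9.6e-06).

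In the citric acid cycle and pyruvate oxidation list 25 of 30 fell and none rose, at a median of -0.31 (19 to 26 with 1 library left out). Idh2, the mitochondrial isocitrate dehydrogenase that makes NADPH, had 1179, 1001 and 1157 CPM in PLNR9C ventricles, against 1598, 1520 and 1532 CPM in wild type ventricles (-0.48 ± 0.07, adjusted p = 0.00021). Pdhb, a subunit of pyruvate dehydrogenase, fell by 0.39 ± 0.06 (adjusted p = 0.00017), Dld, a subunit shared by several dehydrogenase complexes, by 0.38 ± 0.07 (adjusted p = 0.00063), and Pdk1, a kinase that restrains pyruvate dehydrogenase, by 0.34 ± 0.06 (adjusted p = 0.00054). Pdk4, another such kinase, spread widely, with 148, 336 and 247 CPM in PLNR9C against 376, 454 and 508 CPM in wild type, and did not pass (-0.87 ± 0.32, adjusted p = 0.12). Nuclear genes of oxidative phosphorylation fell in 39 of 79 cases, at a median of -0.25, with none risen. That count depended on single libraries: it was 13 without wild type replicate 1, 15 without PLNR9C replicate 2 and 25 without wild type replicate 2, and it reached 54 in another such fit. Sdha, the catalytic subunit of complex II, had 1232, 1041 and 1181 CPM in PLNR9C ventricles, against 1614, 1536 and 1518 CPM in wild type ventricles (-0.43 ± 0.07, adjusted p = 0.00016). Uqcrfs1 of complex III fell by 0.44 ± 0.08 (adjusted p = 0.0011) and Atp5b of the ATP synthase by 0.30 ± 0.06 (adjusted p = 0.0015). Of the 13 genes encoded by mitochondrial DNA 3 fell, among them mt-Co1 (-0.31 ± 0.07, adjusted p = 0.0052). Mitochondrial messengers took 12.9% to 13.4% of reads in PLNR9C libraries and 13.8% to 15.5% in wild type libraries.

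Of 27 genes of glucose uptake and glycolysis 12 fell and 1 rose. The riser was Slc2a1, the glucose transporter GLUT1 that is high in the fetal heart (0.55 ± 0.14, adjusted p = 0.014), a call lost without PLNR9C replicate 2, wild type replicate 1 or wild type replicate 3. Eno3, the muscle enolase, had 820, 671 and 844 CPM in PLNR9C ventricles, against 1101, 1071 and 1064 CPM in wild type ventricles (-0.47 ± 0.08, adjusted p = 0.00061), and Pfkm, the muscle phosphofructokinase, fell by 0.34 ± 0.06 (adjusted p = 0.00067). In ketone, branched-chain amino acid and creatine metabolism 13 of 23 fell and 2 rose. Dbt, a subunit of the branched-chain ketoacid dehydrogenase, fell by 0.45 ± 0.06 (adjusted p = 8.7e-05), and Oxct1, which activates ketone bodies, by 0.36 ± 0.06 (adjusted p = 0.00059). Gatm, which makes the precursor of creatine, had 17.2, 17.2 and 14.1 CPM in PLNR9C, against 5.34, 6.13 and 7.56 CPM in wild type (1.35 ± 0.18, adjusted p = 8.8e-05), and Bcat1, the cytosolic transaminase of branched-chain amino acids, rose by 1.14 ± 0.28 (adjusted p = 0.008). Gatm was read mainly in non-myocytes, at 0.934 CPM in wild type cardiomyocytes and 20.3 CPM in wild type non-myocytes.

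Of 26 regulators of mitochondrial metabolism 10 fell and none rose. Ppara, the nuclear receptor that drives fatty acid oxidation genes, had 137, 137 and 153 CPM in PLNR9C ventricles, against 199, 201 and 184 CPM in wild type ventricles (-0.46 ± 0.08, adjusted p = 0.0011). Its dimer partner Rxrg fell by 0.41 ± 0.07 (adjusted p = 0.00086). Perm1, listed in the table as 2310042D19Rik and known in muscle as a regulator induced by the coactivator PGC-1, had 409, 408 and 437 CPM in PLNR9C, against 601, 585 and 639 CPM in wild type (-0.54 ± 0.08, adjusted p = 0.00016). Esrrg, an orphan receptor of oxidative muscle, fell by 0.33 ± 0.06 (adjusted p = 0.0011), as did the deacetylase gene Sirt3 (-0.36 ± 0.08, adjusted p = 0.0047) and Mfn1, which fuses mitochondria (-0.32 ± 0.05, adjusted p = 0.00041). The coactivator gene Ppargc1a itself had 159, 140 and 167 CPM in PLNR9C, against 179, 206 and 198 CPM in wild type, and did not pass (-0.32 ± 0.11, adjusted p = 0.064). Of 21 cardiac transcription factor genes 2 fell, beside 6.5% of all genes tested. They were Esrrg and Mef2a (-0.26 ± 0.06, adjusted p = 0.0064).

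Part of the genes of amino acid supply rose. ATF4, whose translation increases when the initiation factor eIF2 is phosphorylated, is known to switch on amino acid transporters, the synthesis of serine, proline and asparagine, mitochondrial folate enzymes and transfer RNA synthetases. Mthfd2, the folate enzyme of mitochondria that is low in most adult tissue, had 11.6, 17.4 and 9.79 CPM in PLNR9C ventricles, against 1.29, 1.18 and 1.34 CPM in wild type ventricles (3.35 ± 0.25, adjusted p = 8.3e-07). It was among 8 of 23 synthesis genes that rose, with 1 fallen, at a median of 0.02, so most of the list did not pass. Asns, asparagine synthetase, had 6.38, 9.76 and 6.36 CPM in PLNR9C, against 1.17, 1.68 and 1.89 CPM in wild type (2.23 ± 0.27, adjusted p = 5.6e-05). Pycr1, of proline synthesis, rose by 1.88 ± 0.24 (adjusted p = 4e-05), Aldh18a1, of the same pathway, by 0.88 ± 0.17 (adjusted p = 0.0029), Phgdh, the first enzyme of serine synthesis, by 1.51 ± 0.24 (adjusted p = 0.00028), and Psat1, the second, by 1.45 ± 0.21 (adjusted p = 0.00016).

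Of 25 amino acid transporter genes 8 rose and 1 fell, at a median of 0.22. Slc7a5, the carrier LAT1 of large neutral amino acids, had 27.3, 32.6 and 22.8 CPM in PLNR9C ventricles, against 8.34, 8.90 and 8.75 CPM in wild type ventricles (1.67 ± 0.12, adjusted p = 1.4e-07). Its heavy chain partner Slc3a2 had 57.7, 73.2 and 55.8 CPM in PLNR9C, against 40.3, 42.4 and 42.0 CPM in wild type (0.58 ± 0.11, adjusted p = 0.0028). Slc7a11, the cystine carrier that pairs with the same heavy chain, rose by 2.95 ± 0.38 (adjusted p = 5.3e-05). Slc7a7, Slc7a8 and Slc6a9, carriers of cationic amino acids, neutral amino acids and glycine, rose by 1.54, 1.17 and 1.04 on the log2 scale, with standard errors of 0.20, 0.17 and 0.16.

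In the integrated stress response list 7 of 20 rose, at a median of 0.27, and 4 rose without PLNR9C replicate 1. The 1 that fell was under the 6.5% of all genes tested. Atf5 had 43.2, 44.3 and 41.3 CPM in PLNR9C ventricles, against 23.95, 23.0 and 25.02 CPM in wild type ventricles (0.84 ± 0.09, adjusted p = 9.1e-06), and Atf4 had 50.1, 51.7 and 50.2 CPM in PLNR9C, against 40.3, 38.3 and 39.6 CPM in wild type (0.36 ± 0.07, adjusted p = 0.0011). Trib3, a pseudokinase that binds ATF4, rose by 1.66 ± 0.24 (adjusted p = 0.00016). Ddit3, which encodes the death-linked factor CHOP, had 14.6, 15.0 and 15.3 CPM in PLNR9C, against 13.7, 14.2 and 12.98 CPM in wild type, and did not pass (0.13 ± 0.11, adjusted p = 0.50). Neither did Chac1, a glutathione-degrading enzyme that CHOP and ATF4 switch on (0.98 ± 0.32, adjusted p = 0.073), or Atf3 (1.13 ± 0.46, adjusted p = 0.16). Vldlr, the lipoprotein receptor placed in the same list, fell by 0.37 ± 0.07 (adjusted p = 0.0011). Of the 20 genes of this list 10 were higher in wild type non-myocytes and 5 in cardiomyocytes. For the transporters these were 14 and 5 of 24 tested in the fractions, and for the synthesis genes 9 and 10 of 23.

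Synthetases that charge transfer RNA split by compartment. Of 20 cytosolic ones 6 rose and none fell, at a median of 0.14, while of 17 mitochondrial ones 6 fell and none rose, at a median of -0.22. Sars, the cytosolic seryl synthetase, had 57.1, 60.6 and 49.7 CPM in PLNR9C ventricles, against 38.1, 43.8 and 43.7 CPM in wild type ventricles (0.41 ± 0.08, adjusted p = 0.0012). Aars rose by 0.28 ± 0.07 (adjusted p = 0.011). Nars2, the mitochondrial asparaginyl synthetase, had 11.8, 11.4 and 11 CPM in PLNR9C, against 14.0, 16.0 and 16.4 CPM in wild type (-0.44 ± 0.10, adjusted p = 0.0051). Both counts depended on single libraries. The cytosolic count was 1 without PLNR9C replicate 1 or wild type replicate 1, 2 without PLNR9C replicate 2 and 3 without wild type replicate 2. The mitochondrial count was 1 without PLNR9C replicate 2 or wild type replicate 1 and 3 without PLNR9C replicate 1 or wild type replicate 2. In the wild type fractions 17 of 20 cytosolic and 17 of 17 mitochondrial synthetase genes were higher in cardiomyocytes.

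The C/EBP-ATF element, the composite site at which ATF4 and C/EBP proteins are known to bind, was looked for as TGATGNAA on both strands of RefSeq promoters of GRCm38.p6, from 250 bases before to 50 bases after each gene's start. The following 4 promoters of risen genes, from transport, synthesis and charging of amino acids, show how the matches lie, 5′ to 3′ on the gene's strand, with the matching letters in capitals and up to 30 bases on either side.
Slc7a11, chr3:50443623-50443709, minus strand: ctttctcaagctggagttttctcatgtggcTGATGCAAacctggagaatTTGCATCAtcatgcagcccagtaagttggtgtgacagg
Pycr1, chr11:120643814-120643881, minus strand: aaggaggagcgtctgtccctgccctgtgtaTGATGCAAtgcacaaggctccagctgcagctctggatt
Asns, chr6:7693210-7693262, minus strand: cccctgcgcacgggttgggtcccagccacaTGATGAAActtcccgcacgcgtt
Aars, chr8:111033700-111033767, plus strand: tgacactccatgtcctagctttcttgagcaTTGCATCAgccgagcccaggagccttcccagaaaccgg
Slc7a11 held a match on each strand, the first 66 bases before its start, and Asns held one 23 bases before its start. A match stood in 2 of 6 risen transporters with a promoter in the table, 2 of 6 risen synthesis genes, 2 of 6 risen integrated stress response genes and 3 of 4 risen cytosolic synthetases. Over all tested members with a promoter, risen or not, it stood in 3 of 18 transporters (16.7%), 2 of 17 synthesis genes (11.8%), 6 of 19 integrated stress response genes (31.6%) and 5 of 12 cytosolic synthetases (41.7%). In the stress response list these included Vldlr, which fell, and Atf3 and Chac1, which did not pass. Over all genes it stood in 280 of 10106 tested (2.77%). It stood in 4.79% of the risen genes with a promoter and in 4.51% of all 27025 promoters in the table. A match describes the letters and is not a binding site.

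Genes of protein folding in the endoplasmic reticulum rose. Of 33 chaperones and unfolded protein response genes 21 rose and none fell, at a median of 0.34, and 14 to 21 rose with 1 library left out. Creld2, a secreted stress-inducible protein, had 33.5, 37.4 and 31.6 CPM in PLNR9C ventricles, against 14.1, 14.7 and 13.2 CPM in wild type ventricles (1.29 ± 0.09, adjusted p = 1.4e-07). Sdf2l1, a cofactor of the chaperone BiP, had 12.4, 14.2 and 11.9 CPM in PLNR9C, against 2.53, 3.07 and 2.09 CPM in wild type (2.32 ± 0.21, adjusted p = 2.3e-06). Derl3, a channel component for the disposal of misfolded proteins, had 6.92, 15.9 and 5.64 CPM in PLNR9C, against 0.235, 0.210 and 0.298 CPM in wild type (5.24 ± 0.56, adjusted p = 0.00018). Between 102 and 343 reads per PLNR9C library stood against 4 to 6 reads per wild type library for Derl3. Manf, a secreted factor held by BiP, rose by 0.94 ± 0.12 (adjusted p = 4e-05), P4hb, the protein disulfide isomerase, by 0.58 ± 0.07 (adjusted p = 1.3e-05), and Edem1, which marks glycoproteins for disposal, by 0.49 ± 0.08 (adjusted p = 0.00018). Hspa5, which encodes BiP itself, had 424, 487 and 414 CPM in PLNR9C, against 387, 369 and 349 CPM in wild type (0.26 ± 0.08, adjusted p = 0.035). That call was lost without PLNR9C replicate 2 or any wild type library, with an adjusted p of up to 0.178. The transcription factor genes Atf6 (0.19 ± 0.07, adjusted p = 0.086) and Xbp1 (0.18 ± 0.07, adjusted p = 0.095) did not pass. Of the 33, 21 were higher in wild type non-myocytes and 5 in cardiomyocytes.

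Some of these chaperone genes share a promoter sequence. The endoplasmic reticulum stress element, CCAAT and CCACG with 9 bases between them, to which ATF6 and NF-Y are known to bind, was looked for on both strands of the same promoters. It stood in 8 of the 17 risen members with a promoter (47.1%) and in 9 of 26 tested members, against 18 of 10106 genes tested (0.178%) and 0.137% of all promoters in the table. The 8 were Derl3, Creld2, Pdia6, Dnajc3, Calr, Hsp90b1, Syvn1 and Hspa5, and Canx was the ninth, which did not pass (-0.13 ± 0.06, adjusted p = 0.14). Elements of 5 of them follow, 5′ to 3′ on the gene's strand of GRCm38.p6, with the element in capitals and 30 bases on either side.
Creld2, chr15:88819490-88819568, plus strand: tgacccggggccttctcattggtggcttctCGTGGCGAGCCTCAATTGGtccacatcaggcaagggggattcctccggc
Derl3, chr10:75893212-75893290, plus strand: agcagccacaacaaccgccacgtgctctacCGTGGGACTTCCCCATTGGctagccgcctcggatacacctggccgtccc
Pdia6, chr12:17266461-17266539, plus strand: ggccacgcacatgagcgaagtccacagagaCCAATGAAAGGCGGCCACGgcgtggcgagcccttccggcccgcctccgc
Dnajc3, chr14:118937797-118937875, plus strand: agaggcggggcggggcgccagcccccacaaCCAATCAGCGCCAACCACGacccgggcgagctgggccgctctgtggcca
Hspa5, chr2:34771995-34772073, plus strand: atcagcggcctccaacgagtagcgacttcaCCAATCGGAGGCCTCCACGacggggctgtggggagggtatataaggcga
In Creld2 and Derl3 the element stood on the opposite strand, so its letters read in reverse complement. Among the 8 genes the log2 fold change ran from 0.26 in Hspa5 to 5.24 in Derl3, with 0.46 ± 0.08 in Pdia6, 0.41 ± 0.08 in Dnajc3, 0.37 ± 0.08 in Calr, 0.34 ± 0.08 in Hsp90b1 and 0.27 ± 0.07 in Syvn1.

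Redox genes rose in part. Of 26 antioxidant and NRF2 target genes 11 rose and 2 fell, at a median of 0.13, the falls near the 6.5% of all genes tested. Srxn1, sulfiredoxin, had 52.0, 57.9 and 50.0 CPM in PLNR9C ventricles, against 27.8, 35.7 and 31.1 CPM in wild type ventricles (0.75 ± 0.12, adjusted p = 0.0011), and the glutathione peroxidase genes Gpx1 and Gpx3 rose by 0.52 ± 0.09 and 0.41 ± 0.07 (adjusted p = 0.0005 and 0.00094). Sod2, the superoxide dismutase of mitochondria, fell with the mitochondrial genes, at 464, 436 and 494 CPM in PLNR9C against 655, 622 and 610 CPM in wild type (-0.44 ± 0.06, adjusted p = 0.00011). Its 2 falls were 1 without PLNR9C replicate 2, wild type replicate 1 or wild type replicate 2. Of 25 heat shock and mitochondrial chaperone genes 2 rose, near the 7.86% of all genes tested, and 3 fell. The 3 that fell, Hspd1 (-0.27 ± 0.06, adjusted p = 0.0057), Hspa9 and Clpx, act in mitochondria. The 2 became 0 or 1 with any library left out, and the 3 became 1 without PLNR9C replicate 1, PLNR9C replicate 2, wild type replicate 1 or wild type replicate 2.

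In the ribosomal protein list 4 of 56 rose and 1 fell, both under the 7.86% and 6.5% of all genes tested. With 1 library left out 1 to 3 rose. Rpl3l, the muscle form of a large subunit protein, had 130, 106 and 140 CPM in PLNR9C ventricles, against 210, 183 and 180 CPM in wild type ventricles (-0.61 ± 0.12, adjusted p = 0.0046). Rpl3, the form that other tissues use, had 45.6, 50.0 and 45.7 CPM in PLNR9C, against 33.0, 32.9 and 35.6 CPM in wild type (0.48 ± 0.11, adjusted p = 0.0073). The pair thus moved in opposite directions, each with no overlap between groups. In proteolysis and autophagy 5 of 33 rose and 2 fell, the falls near the 6.5% of all genes tested. The 5 were 3 without wild type replicate 1 and 2 without wild type replicate 3. The 2 were 1 without PLNR9C replicate 2 or any wild type library. Sqstm1, the autophagy receptor p62, rose by 0.42 ± 0.08 (adjusted p = 0.0012). Of 19 clock and clock output genes 3 fell (1 without PLNR9C replicate 2, wild type replicate 1 or wild type replicate 2). The 1 that rose, under the 7.86% of all genes tested, was Npas2, a partner of BMAL1 (1.51 ± 0.25, adjusted p = 0.00044). Hlf, a clock output factor, was among those that fell (-0.56 ± 0.11, adjusted p = 0.0027). Of 19 cholesterol synthesis genes 2 fell, among them Fdft1, squalene synthase (-0.39 ± 0.08, adjusted p = 0.003), and 1 fell without PLNR9C replicate 2 or wild type replicate 1.

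Of 23 collagen genes 12 rose and none fell, at a median of 0.40, and 6 rose without PLNR9C replicate 2 and 7 without wild type replicate 1. Col1a2, a chain of type I collagen, had 285, 335 and 292 CPM in PLNR9C ventricles, against 169, 182 and 218 CPM in wild type ventricles (0.68 ± 0.14, adjusted p = 0.008). Col3a1, of type III collagen, had 503, 636 and 526 CPM in PLNR9C, against 269, 276 and 268 CPM in wild type (1.03 ± 0.24, adjusted p = 0.021), and Col1a1 rose by 0.85 ± 0.19 (adjusted p = 0.020). The call of Col3a1 was lost without PLNR9C replicate 2 or any wild type library (adjusted p of up to 0.0812). That of Col1a1 was lost without PLNR9C replicate 2, wild type replicate 1 or wild type replicate 2 (up to 0.083). Col6a3, of the pericellular type VI collagen, rose by 0.54 ± 0.10 (adjusted p = 0.0025), Col16a1 by 0.49 ± 0.10 (adjusted p = 0.0033) and Col5a1, which seeds fibrils, by 0.47 ± 0.11 (adjusted p = 0.0086). Of the 23, 22 were higher in wild type non-myocytes than in cardiomyocytes. Fibroblast markers rose in 7 of 13 cases, at a median of 0.34 (2 without wild type replicate 1 and 3 without PLNR9C replicate 2), and the list summed to 2880 to 3090 CPM in PLNR9C libraries and 2360 to 2770 CPM in wild type libraries. Pdgfra, a defining receptor of fibroblasts, rose by 0.30 ± 0.09 (adjusted p = 0.023). That call was lost without PLNR9C replicate 1, PLNR9C replicate 2 or wild type replicate 1 (adjusted p of up to 0.16). Postn, a protein of activated fibroblasts, had 36.6, 40.7 and 31.7 CPM in PLNR9C, against 18.6, 22.5 and 33.0 CPM in wild type, and did not pass (0.55 ± 0.30, adjusted p = 0.28).

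Matricellular proteins signal to cells rather than bear load. Of 38 matrix glycoproteins, these included, 13 rose and none fell, at a median of 0.35, and 8 rose without PLNR9C replicate 2 or wild type replicate 1. Spp1, osteopontin, had 2.50, 2.59 and 2.38 CPM in PLNR9C ventricles, against 0.176, 0.126 and 0.00 CPM in wild type ventricles (4.58 ± 0.73, adjusted p = 0.0008), that is 43 to 65 reads per PLNR9C library and 0 to 3 per wild type library. Thbs4, a thrombospondin of stressed muscle, had 10.1, 8.88 and 11.7 CPM in PLNR9C, against 3.88, 5.29 and 5.57 CPM in wild type (1.04 ± 0.19, adjusted p = 0.0014). Ctgf, a target of TGF-beta and YAP signals, rose by 0.79 ± 0.14 (adjusted p = 0.0042), Tnc, tenascin C, by 1.599 ± 0.33 (adjusted p = 0.0047), and Bgn, biglycan, by 0.58 ± 0.10 (adjusted p = 0.0017). Among enzymes that cut or cross-link matrix, and their inhibitors, 11 of 37 rose and 1 fell (5 without PLNR9C replicate 2 and 6 without wild type replicate 1). Mmp12, the macrophage elastase, had 3.50, 3.28 and 2.27 CPM in PLNR9C, against 0.117, 0.168 and 0.199 CPM in wild type (4.17 ± 0.40, adjusted p = 2.5e-06). Timp1, an inhibitor of such proteases, had 2.19, 3.33 and 2.38 CPM in PLNR9C, against 0.0587, 0.0840 and 0.398 CPM in wild type (3.82 ± 0.55, adjusted p = 0.0002). Both were rare messengers in wild type ventricle, with 2 to 4 reads of Mmp12 and 1 to 8 reads of Timp1 per library.

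In the TGF-beta family 6 of 33 rose and 1 fell, the fall under the 6.5% of all genes tested. The ligand Tgfb2 was ahead. Tgfb2 had 36.1, 49.0 and 28.0 CPM in PLNR9C ventricles, against 13.7, 16.3 and 19.3 CPM in wild type ventricles (1.20 ± 0.22, adjusted p = 0.0057), while Tgfb1 did not pass (0.18 ± 0.07, adjusted p = 0.077). Both receptor chains rose, Tgfbr1 by 0.37 ± 0.07 (adjusted p = 0.0016) and Tgfbr2 by 0.45 ± 0.07 (adjusted p = 0.00024). Ltbp1, which tethers latent ligand in the matrix, fell by 0.29 ± 0.06 (adjusted p = 0.0037).

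Macrophage markers rose. The 14 of 18 that did, at a median of 1.24, were 12 or 13 with 1 library left out. Emr1, which encodes the surface marker F4/80, had 20.7, 24.2 and 20.6 CPM in PLNR9C ventricles, against 4.99, 7.05 and 7.81 CPM in wild type ventricles (1.71 ± 0.19, adjusted p = 5.6e-05). Csf1r, the receptor on which macrophage survival depends, had 111, 116 and 103 CPM in PLNR9C, against 48.6, 51.4 and 64.2 CPM in wild type (1.01 ± 0.12, adjusted p = 0.00011). Ccr2, the receptor of recruited monocytes, had 7.34, 5.04 and 6.03 CPM in PLNR9C, against 1.29, 1.43 and 1.34 CPM in wild type (2.17 ± 0.23, adjusted p = 6.2e-06), and Mrc1, the mannose receptor of tissue macrophages, rose by 1.13 ± 0.14 (adjusted p = 0.00017). Lyve1 (0.28 ± 0.27, adjusted p = 0.58) and Timd4 (0.46 ± 0.33, adjusted p = 0.41), which mark long-lived resident macrophages, did not pass. Both were picked from the list after their values were seen. The list holds further markers of resident cells, and a difference between resident and recruited macrophages was not tested. Ctss, a lysosomal protease of these cells, rose by 1.80 ± 0.18 (adjusted p = 8.1e-06) and Mpeg1, a pore-forming protein, by 1.75 ± 0.20 (adjusted p = 0.00021).

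Chemokine and complement genes rose too. Of 25 chemokine and receptor genes tested 15 rose and none fell, at a median of 1.11. The list held 36 genes, and those not tested had too few reads or no row in the table. Ccl8, a monocyte attractant, had 2.23, 3.61 and 1.88 CPM in PLNR9C ventricles, against 0.352, 0.0420 and 0.0497 CPM in wild type ventricles (4.22 ± 0.59, adjusted p = 0.00011). Cxcl16 rose by 1.11 ± 0.12 (adjusted p = 6.2e-06). Ccl22 had 15 to 40 reads in PLNR9C libraries and 0 to 2 reads in wild type libraries (4.92 ± 0.78, adjusted p = 0.0003). Of 21 complement genes 14 rose and none fell, at a median of 1.17. C1qc, a chain of the recognition molecule C1q, had 41.8, 51.4 and 43.4 CPM in PLNR9C, against 17.1, 19.9 and 19.6 CPM in wild type (1.27 ± 0.11, adjusted p = 1.4e-06), with C1qa at 1.33 ± 0.14 and C1qb at 1.25 ± 0.17. The receptors C3ar1 and C5ar1 rose by 1.38 ± 0.14 and 1.22 ± 0.21 (adjusted p = 4.5e-06 and 0.0021), and the inhibitor Serping1 by 0.74 ± 0.12 (adjusted p = 0.0014). Of the 21, 18 were higher in wild type non-myocytes than in cardiomyocytes, and C1qc stood at 3.57 CPM in wild type cardiomyocytes and 88.5 CPM in wild type non-myocytes.

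Antigen presentation rose in 12 of 19 genes with none fallen, at a median of 0.76. The protease gene Ctss, also in this list, rose most (1.80, adjusted p = 8.1e-06), and class II genes were among the others that rose. H2-Aa, a class II chain, had 74.8, 77.8 and 90.0 CPM in PLNR9C ventricles, against 31.7, 35.7 and 27.7 CPM in wild type ventricles (1.35 ± 0.14, adjusted p = 4e-05), and Cd74, the invariant chain, had 284, 310 and 357 CPM in PLNR9C, against 127, 139 and 126 CPM in wild type (1.28 ± 0.15, adjusted p = 0.00033). Ciita, the master regulator of class II genes, rose by 0.90 ± 0.15 (adjusted p = 0.00048). By calls, interferon-induced genes were near the background of 7.86%, at 3 of 35 risen and none fallen. The list median was 0.29, and Ifit2 was among the 3 (0.52 ± 0.13, adjusted p = 0.0086). Fits on the 6 vehicle libraries alone called 7 to 10 of the 35. In 16 of the 35 every PLNR9C library lay above every wild type library, against 16.7% of all genes tested. None lay wholly below, against 15.9%. In NF-kB and acute phase genes 17 of 33 rose and none fell, at a median of 0.61 (11 without PLNR9C replicate 2). Nfkb2, which encodes the p100 precursor of the noncanonical pathway, had 58.3, 62.8 and 56.6 CPM in PLNR9C ventricles, against 35.9, 35.3 and 37.1 CPM in wild type ventricles (0.72 ± 0.07, adjusted p = 2.5e-06). Its partner Relb rose by 0.81 ± 0.12 (adjusted p = 0.00017), the inhibitor Nfkbie by 1.58 ± 0.20 (adjusted p = 4e-05), and Socs3, a brake on cytokine receptors, by 1.52 ± 0.22 (adjusted p = 0.00021). Il1b (0.90 ± 0.57, adjusted p = 0.34) and Tnf (0.66 ± 0.49, adjusted p = 0.43), both under 1 CPM, did not pass.

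Markers of other cells passed less often than macrophage markers. Over all genes tested 7.86% rose and 6.5% fell. Of 16 endothelial markers 1 fell, Fabp4, near that 6.5%, at a list median of -0.14. That call was lost without PLNR9C replicate 1, PLNR9C replicate 2, wild type replicate 1 or wild type replicate 2. Of 12 smooth muscle and pericyte markers 3 fell, above that 6.5%, at a median of -0.27. The 3 were 1 without PLNR9C replicate 1, PLNR9C replicate 2, wild type replicate 1 or wild type replicate 3. Of 3 lymphocyte markers tested 1 rose, Cd4, a call lost without PLNR9C replicate 2 or wild type replicate 1. Of 4 neutrophil markers tested 1 rose, Csf3r, a call lost without PLNR9C replicate 3, wild type replicate 1 or wild type replicate 3, and 3 rose without wild type replicate 2. The 9 epicardial and mesothelial markers had a median of 1.34, yet none passed. Their sum was 64.0, 43.0 and 50.2 CPM in PLNR9C libraries and 17.4, 45.5 and 22.7 CPM in wild type libraries, with wild type replicate 2 apart from the other 2, and 6 of the 9 rose without it. In the JQ1 comparison the same markers had a median of -1.47, the opposite direction, and none passed. The difference between the genotype effects had an unadjusted p under 0.05 in 6 of the 9, beside 5.62% of all genes tested. Of 7 Schwann cell and nerve markers, 4 red cell markers and 2 skeletal muscle markers none passed, and of 7 adipocyte markers 1 fell, Fabp4 again. Of 7 atrial markers Nppa rose and Kcnj3 fell.

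Division and early response genes rose in places. Of 34 cell cycle genes 8 rose and none fell, at a median of 0.44, and 5 rose without PLNR9C replicate 1, wild type replicate 2 or wild type replicate 3. Mki67, which marks cycling cells, had 11.1, 7.45 and 7.19 CPM in PLNR9C ventricles, against 3.41, 3.69 and 4.43 CPM in wild type ventricles (1.17 ± 0.21, adjusted p = 0.001), and Top2a rose by 1.34 ± 0.31 (adjusted p = 0.0082). Both were higher in wild type non-myocytes than in cardiomyocytes, by 2.06 and 2.59 on the log2 scale. Myc, a growth factor-responsive transcription factor, had 7.15, 8.51 and 8.46 CPM in PLNR9C, against 3.23, 3.74 and 3.33 CPM in wild type (1.22 ± 0.20, adjusted p = 0.00045). It was among 4 of 24 immediate early genes that rose, a count of 1 without PLNR9C replicate 1, PLNR9C replicate 2 or wild type replicate 1 and 2 without PLNR9C replicate 3, while Fos and Egr1 did not pass. Of 22 cell cycle inhibitors and p53 targets 4 rose and 1 fell, the fall under the 6.5% of all genes tested. The gene that fell was Ccng1 (-0.35 ± 0.07, adjusted p = 0.0034). Cdkn1a, which encodes p21, did not pass (0.57 ± 0.29, adjusted p = 0.26). The 4 were 1 without PLNR9C replicate 2 or wild type replicate 1 and 2 without wild type replicate 2 or wild type replicate 3.

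The same genotypes given JQ1, which displaces BET proteins from acetylated histones, offered a comparison in 6 further libraries that share none with the vehicle comparison. With JQ1 531 genes were higher in PLNR9C (3.43%) and 393 lower (2.54%), together 5.96% of those tested. Without PLNR9C JQ1 replicate 2 these were 292 and 163, and without PLNR9C JQ1 replicate 3 they were 463 and 239. Of the 1219 genes that rose with vehicle 444 also rose with JQ1, which is 36.4% of the vehicle list and 83.6% of the JQ1 list. Of the 1007 that fell 288 also fell with JQ1, which is 28.6% of the vehicle list and 73.3% of the JQ1 list. None passed in opposite directions. The JQ1 log2 fold change was positive in 94.9% of the risen genes, at a median of 0.38, and negative in 96.6% of the fallen genes, at a median of -0.20. Over all genes tested 50.6% were positive.

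**Figure D5:**
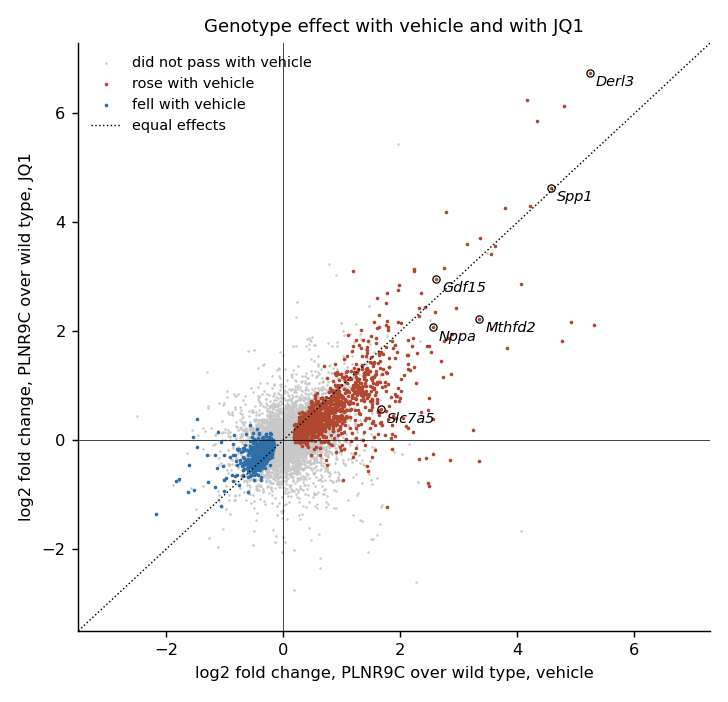
Log2 fold change of PLNR9C over wild type with JQ1 (vertical axis) against that with vehicle (horizontal axis), 1 point per gene, red and blue for genes that rose or fell with vehicle and a dotted line for equal effects. Most red points lie above 0 and most blue points below it on the JQ1 axis; Slc7a5 lies well below the dotted line at 0.56 with JQ1 and 1.67 with vehicle.

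Endoplasmic reticulum genes rose in 18 of 33 cases with JQ1 and fatty acid genes fell in 24 of 38, at medians of 0.36 and -0.37. Creld2 rose by 1.30 with JQ1 and 1.29 with vehicle, and Gdf15 by 2.96 with JQ1 and 2.61 with vehicle. Most lists had fewer calls with JQ1 than with vehicle, these 2 among them. The citric acid cycle list had 10 of 30 fallen with JQ1 and 25 with vehicle, and oxidative phosphorylation 10 and 39 of 79. Complement had 5 and 14 of 21 risen, and antigen presentation 5 and 12 of 19. Medians in the same order were -0.21, -0.15, 0.42 and 0.45 with JQ1, against -0.31, -0.25, 1.17 and 0.76 with vehicle. The differences between these medians were not tested. That the number of calls was smaller does not show a smaller effect, since the difference between the genotype effects was called for 1 gene of 15501 (0.00645%), with 871 (5.62%) at an unadjusted p under 0.05. DESeq2 called 11, and 22 were called without wild type vehicle replicate 2. The 1 gene was Slc7a5, with 1.67 ± 0.12 under vehicle and 0.56 with JQ1, a difference of 1.11 ± 0.16 (adjusted p = 0.023). That call was lost without PLNR9C JQ1 replicate 1 or 3, PLNR9C vehicle replicate 1, wild type JQ1 replicate 1 or 3, or wild type vehicle replicate 1 or 3. Grk5, with 0.85 under vehicle and 0.16 with JQ1, had an adjusted p of 0.19 for that difference (0.69 ± 0.14).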

How the data were processed

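RNA was isolated from whole left ventricle with TRIzol and made into Nextera libraries, per the labels' protocols. The deposited table gives read counts per gene that the authors made, and STAR 2.4.1b and the builds GRCm38 and mm10 are named without a role in the submitters' processing notes. For the counting tool, annotation and strand setting, the labels and headers name nothing. The authors' deposited normalized column behaves as RPKM: in 11214 genes with at least 50 reads it gave 1 gene length across libraries within 0.1%. No test used it.

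All tests were run on the counts with edgeR 4.0.16 in R 4.3.3: genes filtered by group, 15501 of 31920 kept, library sizes scaled by the trimmed mean of M-values, and a robust quasi-likelihood fit over the 12 ventricle libraries at 8 weeks, with Benjamini-Hochberg adjustment at 0.05. Alternatives used DESeq2 1.42.0, other scalings and filters, the 6 vehicle libraries alone, the replicate number as a block, and each library left out. An exact permutation test of 3 against 3 cannot go below p = 0.1 and was not used. The fit was tested on simulated data. Cell fractions were fitted over 24 libraries of pooled cells at 16 weeks, 15823 genes. Same-numbered cardiomyocyte and non-myocyte libraries deviated together weakly (r = 0.198, 0.128 and 0.274). Libraries of different numbers were not compared, so whether the numbers pair those samples was not tested. With the replicate number as a block 12611 genes differed between the cell types, against 12586 without it.

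The gene lists and members were chosen with earlier results of these data known. Genes named were the 12 largest rises and falls within limits of level and overlap, the 8 smallest p-values in each direction, up to 6 called members per list, fixed genes and the smallest p-values of the difference between vehicle and JQ1. Ankrd1, Bcat1, Cd36, Cpt1b, Mrc1, Slc2a1, Tnc and the list members given as not passing were chosen after their values were seen. Pdia6, Dnajc3, Calr, Hsp90b1, Syvn1 and Canx were named for their promoters. Promoters are RefSeq sequences of GRCm38.p6, matched by symbol for 10106 of the genes tested. A few genes that these rules pick are not reported here.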

Additional observations from a re-analysis of the deposited data

Results flagged for a closer look

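The difference between the genotype effect with vehicle and that with JQ1 passed the test itself for Slc7a5, the amino acid carrier LAT1. Its log2 fold change of PLNR9C over wild type was 1.67 with vehicle and 0.56 with JQ1, a difference of 1.106 ± 0.161 in edgeR's quasi-likelihood test (adjusted p = 0.0233 over 15501 genes). The direction of the genotype effect was the same in both comparisons.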

How the results depend on the processing

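Leaving out 1 library gave 1267 to 2088 genes for the vehicle comparison (731 to 1124 higher in PLNR9C and 536 to 964 lower), 455 to 790 for the JQ1 comparison (292 to 463 higher and 163 to 371 lower) and 0 to 22 for the difference between them. DESeq2 gave 11 for that difference and a fit with no filter on low counts gave 8. The other alternatives for the vehicle comparison gave 2081 to 2402 genes. Upper-quartile scaling split them into 1349 higher and 845 lower, 61.5% higher against 54.8% in the main analysis. The cell fraction comparison gave 12126 to 12295 genes with 1 library left out. Among 3806 results of named genes under an alternative, 3473 kept their direction and side of the threshold, 319 no longer passed, 14 newly passed and 0 reversed. The cause was not tested.

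Same-numbered PLNR9C and wild type ventricles did not deviate together (r = 0.041, -0.11 and -0.076). Values this low, from 3 libraries a group, cannot exclude a pairing of the samples. With the replicate number as a block 2230 genes were called, 2109 of them shared with the fit without it. In the 6 vehicle libraries alone 2081 were called with the block and 2402 without it. With 3 libraries a group, genes of few reads have wide errors, and a p over the threshold does not show that a gene did not differ.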
